A study of Rattus norvegicus with 6 samples.

Results

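The genes that mark reactive astrocytes were 10 rows, taken from the expression table by their symbols, and all 10 were present among its 17648 rows. They were the intermediate filament genes GFAP, VIM and NES, the genes of secreted proteins LCN2, CP, CHI3L1, SERPINA3N and TIMP1, and the cell surface receptor genes CD44 and OSMR. Astrocytes respond to injury of the brain or spinal cord by enlarging, by building more intermediate filaments and by secreting acute phase proteins, cytokine-responsive proteins and protease inhibitors. Cytokines of the interleukin-6 family act through gp130 and STAT3, and interleukin-1 and tumour necrosis factor through NF-kappaB and C/EBP factors, and the filament and secreted genes are known targets of these routes to different degrees.

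The 6 libraries came from cultured neurons of the spinal cord, taken from Sprague-Dawley rats at the neonatal stage and grown for 3 days with Ara-C, a drug against dividing cells. In the study's text all cultures were exposed to 10 uM glutamate for 1 h and kept for another 16 h, and they carried a control siRNA (Glu + siR-Con, n = 3) or an siRNA against galectin-3 (Glu + siR-GAL3, n = 3). The treatment labels differ from this text, since they give saline for the siR-Con libraries and 10 uM glutamate for the siR-GAL3 libraries. They also call the siR-GAL3 cells a GAL3 knockout. If the labels hold, effects of glutamate and of galectin-3 loss cannot be told apart in any comparison here. No label ties a library to an animal or a culture, so the p-values measure the spread between these libraries, which may be technical. The authors had already corrected differences within groups, so this is only the spread that their correction left. The SDs, intervals and p-values may therefore be too small. LGALS3, which encodes galectin-3, was at 77.4, 54.4 and 62.4 in siR-Con and at -1.64, 32.3 and 18.5 in siR-GAL3, so all 3 siR-GAL3 libraries lay below all 3 siR-Con libraries.

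The values are on a linear, per-length scale that the authors derived from FPKM and then corrected, and some fell below 0. Sequencing depth is unknown, so no counting error can be given. The libraries fell into 3 sets by how many exact nonzero values they shared, 1312 to 1463 within a set and 238 to 264 between sets. The first set held replicate 1 of both groups, the second siR-Con replicates 2 and 3 with siR-GAL3 replicate 3. The third held siR-GAL3 replicate 2 alone, which was also apart on a first principal component that held 65.2% of the variance. The cultures were labelled as neurons, but GFAP was at 515 to 758 in every library while RBFOX3, which encodes the neuronal nuclear protein NeuN, was at 0.30 to 0.43. Other neuronal markers were higher. Of 12 listed, 4 reached a mean of 1 and 7 were under 0.5 in every library. Together they summed to 24.9 to 29.2 in siR-Con and 23.6 to 28.9 in siR-GAL3. AQP4, the astrocyte water channel, was at 95.6 to 134, and MBP, a myelin protein, at 629 to 919. In such bulk samples, fewer cells of a type and less RNA per cell cannot be told apart.

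Stretches upstream of LCN2, GFAP and SERPINA3N are shown because they carry, or lack, the short motifs of the factors named above. They come from RefSeq promoter windows on build GRCr8, 250 bases before to 50 after a transcript start, and only bases outside the annotated gene are printed. The build used by the authors is not given in the sources used here. The LCN2 stretch is chr3:36081852-36082030 on the minus strand (179 bases), the GFAP stretch chr10:88361662-88361911 on the minus strand and the SERPINA3N stretch chr6:129088142-129088391 on the plus strand (both 250 bases). Capitals mark matches to the motifs described next.
LCN2: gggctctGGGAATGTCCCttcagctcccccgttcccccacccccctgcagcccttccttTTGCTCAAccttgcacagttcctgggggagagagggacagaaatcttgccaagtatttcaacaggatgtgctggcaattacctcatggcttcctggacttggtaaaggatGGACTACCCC
GFAP: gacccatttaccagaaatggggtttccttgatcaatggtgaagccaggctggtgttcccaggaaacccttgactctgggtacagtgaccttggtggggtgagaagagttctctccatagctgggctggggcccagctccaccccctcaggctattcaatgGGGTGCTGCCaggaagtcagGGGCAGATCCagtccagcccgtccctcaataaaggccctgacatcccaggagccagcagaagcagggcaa
SERPINA3N: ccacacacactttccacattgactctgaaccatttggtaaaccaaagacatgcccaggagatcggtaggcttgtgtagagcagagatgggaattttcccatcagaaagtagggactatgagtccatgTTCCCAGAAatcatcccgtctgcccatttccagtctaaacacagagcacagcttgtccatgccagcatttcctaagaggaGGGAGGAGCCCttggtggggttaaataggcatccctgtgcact

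Motifs were searched on both strands of the 300-base windows of all 10 genes and of 33469 windows in all. In LCN2 the first capitals hold GGGAATGTCC, a match to the loose NF-kappaB pattern GGGNNNNNCC that overlaps its reverse-strand match by 9 bases, the second hold TTGCTCAA, a reverse-strand match to the C/EBP pattern TTNNGCAA, and the last hold another reverse-strand NF-kappaB match. LCN2 and CP were the 2 members with a C/EBP match, against 10.6% of all windows. The GFAP stretch held 2 matches to the NF-kappaB pattern and none to the others, but that pattern occurred in 8 of the 10 members and in 47.3% of all windows. SERPINA3N was the 1 member with the STAT pattern TTCNNNGAA, printed as TTCCCAGAA, which 8.9% of all windows hold, and OSMR the 1 member with the AP-1 pattern TGANTCA, which 7.3% hold. A match describes the letters and is not evidence of binding, and a missing match says only that these letters are not in the window.

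LCN2, CP and CHI3L1, all secreted, were higher in every siR-GAL3 library than in any siR-Con library, GFAP was lower in every siR-GAL3 library, and the other 6 overlapped between the groups. Of all genes tested, 10.3% lay without overlap in the higher and 10.3% in the lower direction. On the log2(value + 1) scale, with values below 0 set to 0, the 3 filament genes were all lower in siR-GAL3 (median log2 fold change -0.15), 4 of the 5 secreted genes were higher (median 0.26, which is the value of SERPINA3N) and both receptors were lower (median -0.15). The split into kinds was chosen with these results known, so it is a description with no test.

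**Figure D1:**
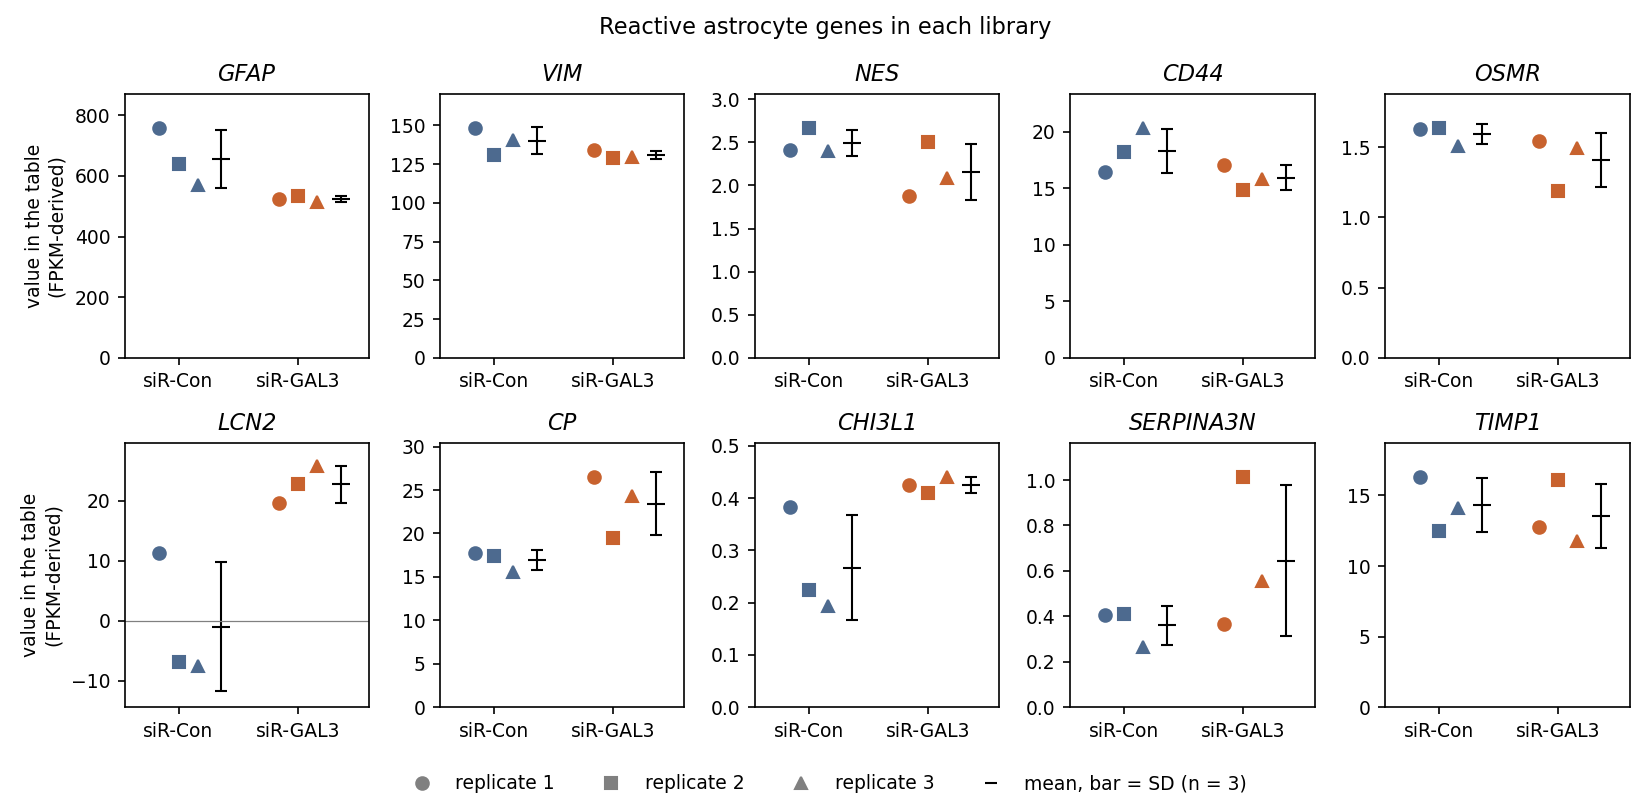
Value of each of the 10 genes in each library (vertical axes, FPKM-derived, starting at 0 except for LCN2, whose axis runs below 0), for siR-Con in blue and siR-GAL3 in orange, with the mean and SD of 3 libraries in black. LCN2, CP and CHI3L1 sit higher in all 3 siR-GAL3 libraries and GFAP sits lower, while the points of the other 6 genes overlap.

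GFAP, the main filament protein of astrocytes, was the most abundant of the 10 and ranked between 4 and 8 among all rows of each library. Its value was 758, 638 and 571 in siR-Con (655 ± 94.6, SD, n = 3) and 523, 533 and 515 in siR-GAL3 (524 ± 9.35, SD, n = 3). The siR-Con libraries were spread widely and the siR-GAL3 libraries lay close together just below the lowest of them. The mean was 20.1% lower in siR-GAL3, with a log2 fold change of -0.31 (SE 0.11, 95% interval -0.57 to -0.05). In limma, fitted over the 8495 genes whose mean reached 1, GFAP had an unadjusted p of 0.0243 and an adjusted p of 0.510. Without siR-Con replicate 1, the highest library, the log2 fold change was -0.20. The unadjusted limma p rose above 0.05 when siR-Con replicate 2, siR-GAL3 replicate 1 or siR-GAL3 replicate 3 was left out (0.0533, 0.0553 and 0.0618), and was 0.116 without the filter on low genes.

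VIM, which encodes vimentin, the filament protein shared by astrocytes, progenitors and mesenchymal cells, was at 148, 131 and 141 in siR-Con and at 134, 129 and 129 in siR-GAL3. The lowest siR-Con library lay within the siR-GAL3 range, and the log2 fold change was -0.10 with a 95% interval of -0.27 to 0.08 (limma, unadjusted p = 0.225). NES, which encodes nestin, a filament protein of progenitors that injured astrocytes re-express, was low at 2.41, 2.67 and 2.39 in siR-Con and 1.87, 2.51 and 2.09 in siR-GAL3. Replicate 2 was the highest library of both groups, and the log2 fold change was -0.15 with an interval of -0.36 to 0.06 (limma, unadjusted p = 0.137). NES rested on single libraries, since its log2 fold change was -0.08 without siR-GAL3 replicate 1 (limma, unadjusted p = 0.386) and -0.23 without siR-GAL3 replicate 2 (unadjusted p = 0.00513). GFAP was 4.06 to 5.11 times VIM in siR-Con and 3.91 to 4.14 times VIM in siR-GAL3, so the balance of the 2 main filament genes overlapped between the groups.

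LCN2, which encodes lipocalin-2, a secreted iron-siderophore binding protein and a widely used marker of reactive astrocytes, had the largest log2 fold change of the 10. Its values were 11.4, -6.88 and -7.57 in siR-Con and 19.6, 22.9 and 25.8 in siR-GAL3. All 3 siR-GAL3 libraries were above siR-Con replicate 1, and both other siR-Con libraries held values below 0, which no expression level can take. With these set to 0 the log2 fold change was 3.35 (SE 0.92, 95% interval 1.16 to 5.54), with an unadjusted p of 0.00858 and an adjusted p of 0.357 in limma. LCN2 passed the filter on low values only through the siR-GAL3 group, where it is high. Its difference is therefore not support for the members as a group. The size rested on how values below 0 were treated. With them left out, which leaves 1 siR-Con library, the log2 fold change was 0.93, and with a pseudocount of 0.1 it was 5.55. Within the first library set LCN2 was 0.73 higher in siR-GAL3 on the log2(value + 1) scale (1 library against 1), and within the second 4.75 higher (1 against 2), where both siR-Con values were below 0. No fold on the linear scale is given for it.

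CP, which encodes ceruloplasmin, the copper-carrying ferroxidase that astrocytes also hold at their surface, was at 17.8, 17.4 and 15.6 in siR-Con (16.9 ± 1.17, SD, n = 3) and 26.5, 19.4 and 24.3 in siR-GAL3 (23.4 ± 3.61, SD, n = 3). Every siR-GAL3 library was above every siR-Con library, with siR-GAL3 replicate 2 the nearest to them. The mean was 38.3% higher and the log2 fold change 0.44 (SE 0.12, 95% interval 0.15 to 0.72), with an unadjusted p of 0.00870 and an adjusted p of 0.357 in limma. CP was higher by nearly the same amount in both sets that held both groups, 0.55 and 0.54 on the log2(value + 1) scale. Without siR-GAL3 replicate 2 its log2 fold change was 0.56 and its adjusted limma p 0.0162, a setting in which 167 genes, or 1.97% of those tested, had an adjusted p under 0.05. A block for the library set gave 0.54 and 0.0196, with 106 genes (1.25%), and is nearly the same comparison, since that library is alone in its set. Over all the settings tried on a log scale the log2 fold change lay between 0.35 and 0.56, and CP was higher in siR-GAL3 in all of them.

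CHI3L1, which encodes the chitinase-like protein YKL-40, was low in every library. It was at 0.38, 0.22 and 0.19 in siR-Con and 0.42, 0.41 and 0.44 in siR-GAL3, with siR-Con replicate 1 again the nearest to the siR-GAL3 range. Its mean was below the filter of 1. In the fit without that filter the log2 fold change was 0.17 (SE 0.06), with an unadjusted limma p of 0.0280 and an adjusted p of 0.482. The unadjusted p was above 0.05 in 5 of the 6 fits that left out 1 library, all but the one without siR-Con replicate 1. Across the 6 libraries CHI3L1 followed LCN2 with a Pearson r of 0.99, a description over 6 points that share their groups and library sets. The LCN2 values below 0 were set to 0 for this r.

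SERPINA3N, which encodes a secreted serine protease inhibitor of the acute phase, was also below the filter, at 0.41, 0.41 and 0.26 in siR-Con and 0.37, 1.01 and 0.56 in siR-GAL3. Only siR-GAL3 replicates 2 and 3 were above the siR-Con range, and the log2 fold change without the filter was 0.26 with a 95% interval of -0.11 to 0.63 (limma, unadjusted p = 0.136). It was 0.10 without siR-GAL3 replicate 2 and 0.38 without siR-GAL3 replicate 1 (unadjusted p = 0.271 and 0.0346 in limma). Its value is uncertain, because 2 other rows, LOC299282 and LOC500712, held the same 6 values, so these rows cannot be told apart here. TIMP1, which encodes a secreted inhibitor of matrix metalloproteinases, was the secreted gene that was not higher. It was at 16.3, 12.5 and 14.1 in siR-Con and 12.7, 16.1 and 11.7 in siR-GAL3, with siR-GAL3 replicate 2 near the top of the siR-Con range. The log2 fold change was -0.08 with an interval of -0.41 to 0.25 (limma, unadjusted p = 0.585), and it changed sign when siR-Con replicate 1 or siR-GAL3 replicate 3 was left out (both 0.01). Without siR-GAL3 replicate 2 it was -0.20, and blocking by library set gave -0.24 (limma, unadjusted p = 0.0747 and 0.0160), and within the first and second library sets TIMP1 was lower, at -0.33 and -0.16 on the log2(value + 1) scale.

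CD44, the hyaluronan receptor on reactive astrocytes, was at 16.5, 18.2 and 20.4 in siR-Con and at 17.1, 14.9 and 15.8 in siR-GAL3. One siR-GAL3 library lay inside the siR-Con range, and the log2 fold change was -0.19 with a 95% interval of -0.42 to 0.04 (limma, unadjusted p = 0.0896). It was -0.26 without siR-Con replicate 1 (unadjusted p = 0.0394 in limma) and -0.12 without siR-Con replicate 3. Within the first library set CD44 was 0.05 higher in siR-GAL3 on the log2(value + 1) scale, and within the second 0.27 lower (-0.27). OSMR, which encodes the receptor chain for oncostatin M that pairs with gp130, was at 1.63, 1.64 and 1.51 in siR-Con and 1.54, 1.19 and 1.49 in siR-GAL3. Its log2 fold change was -0.11 with an interval of -0.29 to 0.07 (limma, unadjusted p = 0.192). Without siR-GAL3 replicate 2, the lowest library, it was -0.04.

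**Figure D2:**
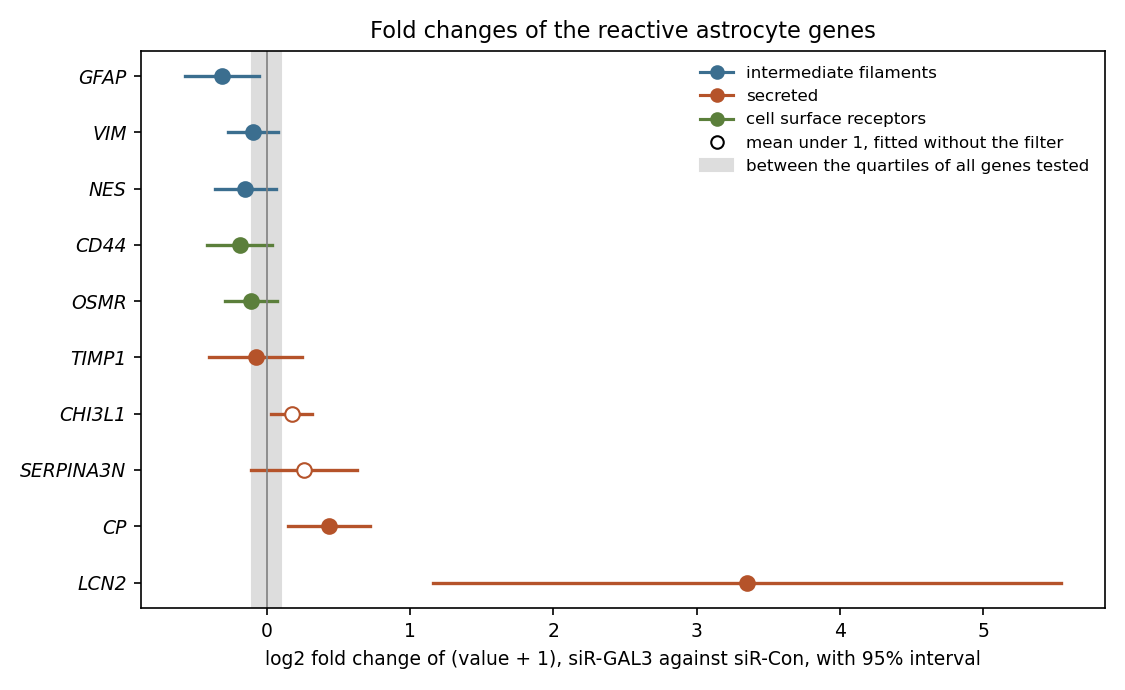
Log2 fold change of (value + 1) in siR-GAL3 against siR-Con for each gene (horizontal axis) with its 95% interval from limma, coloured by kind, over the range between the quartiles of all genes tested (grey, -0.10 to 0.10). The intervals of GFAP, CHI3L1, CP and LCN2 leave out 0, and the interval of LCN2 is the widest, from 1.16 to 5.54. CHI3L1 and SERPINA3N come from the fit without the filter on low genes. In that fit the unadjusted limma p of GFAP was 0.116.

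By level, the order in siR-Con was GFAP, VIM, CD44, CP, TIMP1, NES, OSMR, SERPINA3N and CHI3L1, with LCN2 not placed because its values crossed 0. Among CD44 (18.3 ± 1.95, SD, n = 3), CP (16.9 ± 1.17) and TIMP1 (14.3 ± 1.91), CD44 did not differ from CP beyond their spread, nor CP from TIMP1. In siR-GAL3, CP (23.4 ± 3.61) stood above CD44 and TIMP1 (15.9 ± 1.12 and 13.5 ± 2.29). LCN2 was at 22.8 ± 3.11 there, but it is not placed either, since the same corrected scale took it below 0 in siR-Con.

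Of the 10 genes, 8 passed the filter on low values. LCN2 alone passed the study's criteria of a log2 fold change beyond 1 and an unadjusted p under 0.05, in the higher direction. In that direction 0.259% of all genes tested did. The paper states these criteria for downloaded datasets and does not tie them to these libraries by name. None of the 8 passed in the lower direction, against 0.0589% of all genes. At an unadjusted limma p under 0.05 alone, LCN2 and CP were higher, against 4.41% of all genes, and GFAP was lower, against 4.25%. No member had an adjusted limma p under 0.05 (0.0% of all genes did, and the smallest adjusted p was 0.0695, while 736 genes had an unadjusted p under 0.05). Of the 8, LCN2 and CP did not overlap between the groups in the higher direction and GFAP in the lower, against 10.3% of all genes in each direction (10.3% higher and 10.3% lower). With 3 libraries a group, an exact two-sided permutation test of a single gene cannot go below 0.1. The median log2 fold change of the 8 was -0.10, with 2 higher and 6 lower, beside a median of all genes tested that was 0 to 2 decimals and quartiles of -0.10 and 0.10.

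The filament and secreted genes were also summed in each library. The 3 filament genes summed to 908, 771 and 714 in siR-Con and to 659, 665 and 646 in siR-GAL3, a sum that is mostly GFAP, while VIM and NES overlapped. The 5 secreted genes, with values below 0 taken as 0, summed to 46.3, 30.5 and 30.2 in siR-Con and to 59.7, 59.8 and 62.9 in siR-GAL3, where LCN2 and CP made most of the difference, SERPINA3N overlapped and TIMP1 was lower on average. Neither sum overlapped between the groups. The ratio of GFAP to CP, which uses no value below 0, was 42.6, 36.7 and 36.6 in siR-Con and 19.7, 27.5 and 21.2 in siR-GAL3, so GFAP outweighed CP less in every siR-GAL3 library. These sums and ratios were chosen with the members' values known and carry no test.

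**Figure D3:**
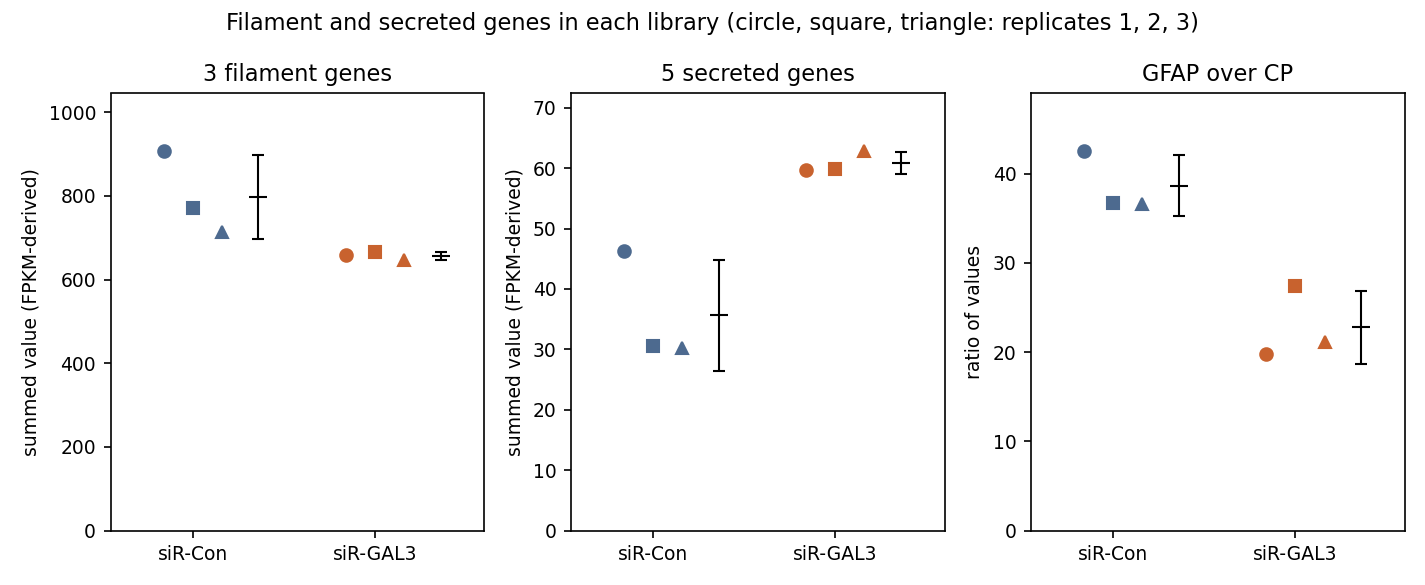
Summed value of the 3 filament genes, summed value of the 5 secreted genes and the ratio of GFAP to CP (vertical axes from 0) in each siR-Con (blue) and siR-GAL3 (orange) library, with the mean and SD of 3 libraries in black. The siR-GAL3 libraries sit lower for the filaments (646 to 665 against 714 to 908), higher for the secreted genes (59.7 to 62.9 against 30.2 to 46.3) and lower for the ratio.

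Other genes of reactive astrocytes were taken from lists, and differences between the lists were not tested. Of the genes often called pan-reactive, a list that holds 8 of the members, 9 were tested, and 2 were higher and 7 lower in siR-GAL3. Their median log2 fold change was -0.10. LCN2, among the 2 higher, passed the filter on low values only through the siR-GAL3 group. Its direction is not support for the list. The 2 tested genes of that list that were not members, HSPB1, a small heat shock protein gene (log2 fold change -0.24), and S1PR3, a sphingosine-1-phosphate receptor gene (-0.05), had unadjusted limma p-values of 0.135 and 0.591 and overlapped. Without siR-GAL3 replicate 2 HSPB1 was -0.39 (limma, adjusted p = 0.0375) and blocked by library set -0.41 (limma, adjusted p = 0.0446), settings in which 1.97% and 1.25% of all genes had an adjusted p under 0.05. STEAP4, a metalloreductase gene, and CXCL10, an interferon-induced chemokine gene, were below the filter but without overlap. STEAP4 was at 0.05 to 0.52 in siR-Con and 0.58 to 0.62 in siR-GAL3, and CXCL10 at 0.13 to 0.33 and 0.66 to 2.07. Both were picked after their values were seen.

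Genes reported to rise in astrocytes after lipopolysaccharide were mostly higher in siR-GAL3. Of 13 listed, 7 were tested, 6 were higher and 1 lower, and the median log2 fold change was 0.76. The 3 genes that passed the study's criteria, as 0.259% of all genes did in this direction, were SERPING1, the C1 inhibitor gene of the complement system (2.11, limma, unadjusted p = 0.00346, adjusted p = 0.262), and the class I histocompatibility genes RT1-A1 (1.19, unadjusted p = 0.000260, adjusted p = 0.109) and RT1-A2 (1.20, unadjusted p = 0.000489, adjusted p = 0.130). RT1-A1 was at 3.27, 2.04 and 1.61 in siR-Con and 6.62, 5.85 and 6.63 in siR-GAL3, and SERPING1 at 3.09, 0.29 and -0.32 and at 6.95, 5.38 and 7.37. In both, siR-Con replicate 1 was the highest siR-Con library, as it was for LCN2. The log2 fold change of SERPING1 was 1.71 with its value below 0 left out and 3.73 with a pseudocount of 0.1. RT1-A1 and RT1-A2 are near-identical genes between which reads could be split, so their separate values are uncertain. GBP2, an interferon-induced GTPase gene, was higher by 0.76 (limma, unadjusted p = 0.00238, adjusted p = 0.232), and C3, the complement component gene, was low, at 0.20 to 0.73 in siR-Con and 0.99 to 1.73 in siR-GAL3. Most of these genes are also made by microglia and other cells. The summed level of the list was 16.9 to 24.2 in siR-Con and 36.7 to 39.7 in siR-GAL3, and its median log2 fold change was 0.58 to 0.86 when 1 library was left out.

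Of the genes reported to rise after ischaemia, 5 were tested. Of these, 1 was higher and 4 were lower, with a median of -0.10, which was -0.03 without siR-GAL3 replicate 1. PTX3, a pentraxin gene, was higher by 0.43 (limma, unadjusted p = 0.0332, adjusted p = 0.535) with overlapping groups, and EMP1, a membrane protein gene, was lower by 0.15 on the log2 scale (-0.15, unadjusted p = 0.0498, adjusted p = 0.574). The unadjusted limma p was above 0.05 in 3 of 6 fits that left out 1 library for PTX3 and in 5 of 6 for EMP1. Of 8 intermediate filament genes tested, 2 were higher and 6 lower, with a median of -0.10, and of those that were not members SYNM, which encodes synemin, a partner of vimentin, had the smallest limma p (-0.20, unadjusted p = 0.114).

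The signalling genes upstream of these programmes were compared in the same way. Of 13 tested genes of the gp130 and STAT3 route, 1 was higher and 12 were lower in siR-GAL3, with a median of -0.11, and none had an unadjusted limma p under 0.05. LIFR, among the 12, passed the filter on low values only through the siR-Con group (mean 1.19 against 0.85). Its direction is therefore not support for the list. STAT3 was at 8.81 to 9.36 in siR-Con and 6.77 to 9.10 in siR-GAL3, with siR-GAL3 replicate 2 lowest, and the gp130 gene IL6ST at 12.4 to 15.1 and 7.75 to 14.2. Without siR-GAL3 replicate 2 the median of the list was -0.04. The ligand genes OSM and IL6 were at most 0.11 and 0.02 in every library.

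Of 19 tested genes of the NF-kappaB and C/EBP routes, 11 were higher and 8 lower, with a median of 0.09, which was 0.04 without siR-GAL3 replicate 2. NFKBIZ, which encodes the nuclear co-factor IkappaB-zeta that LCN2 is known to need in other cells, was at 1.10, 0.74 and 0.66 in siR-Con and 1.51, 1.82 and 1.73 in siR-GAL3 (log2 fold change 0.56, SE 0.10, limma, unadjusted p = 0.000879, adjusted p = 0.149). CEBPD, a C/EBP factor gene induced in the acute phase, was at 6.31, 4.56 and 3.94 in siR-Con and 6.32, 10.1 and 7.61 in siR-GAL3 (0.60, SE 0.19, limma, unadjusted p = 0.0172, adjusted p = 0.477). In CEBPD the lowest siR-GAL3 library was level with the highest siR-Con library, while the NFKBIZ groups stood apart. NFKBIZ passed the filter on low values only through the siR-GAL3 group, with a mean of 0.83 in siR-Con and 1.69 in siR-GAL3, so its difference is not support for the list. TRAF6, among the 8 lower genes, passed it only through the siR-Con group (mean 1.16 against 0.90). The direction of TRAF6 is not support for the list either. The unadjusted limma p of CEBPD was above 0.05 without siR-Con replicate 2 or 3. IL1R1, the interleukin-1 receptor gene, was lower (-0.21, unadjusted p = 0.0238, adjusted p = 0.508), and its unadjusted p was above 0.05 without siR-Con replicate 1 or 3. TNF and IL1B were at or near 0 in every library, at most 0.0008 and 0.039.

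Genes whose proteins bind, cut or work with those of the members were also compared, and of 11 tested 2 were higher and 9 lower, with a median of -0.16 (-0.08 without siR-GAL3 replicate 2). MMP14 and MMP2, metalloproteinase genes that TIMP proteins restrain, were lower (-0.39 and -0.18, limma, unadjusted p = 0.00363 and 0.0347, adjusted p = 0.262 and 0.535). TF, which encodes transferrin, the carrier of the iron that ceruloplasmin oxidises, was higher by 0.33 (limma, unadjusted p = 0.0326, adjusted p = 0.535), at 36.1 to 38.5 in siR-Con and 41.6 to 57.3 in siR-GAL3. Without siR-GAL3 replicate 1 TF was higher by 0.19 (limma, unadjusted p = 0.0520). The unadjusted p was above 0.05 in 4 of 6 fits that left out 1 library for TF, in 5 of 6 for MMP2 and in none for MMP14. SLC22A17, a lipocalin-2 receptor gene, was at 18.8 to 21.1 in siR-Con and 19.3 to 20.2 in siR-GAL3. MMP9, whose protein lipocalin-2 binds, was at most 0.42 in every library.

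**Figure D4:**
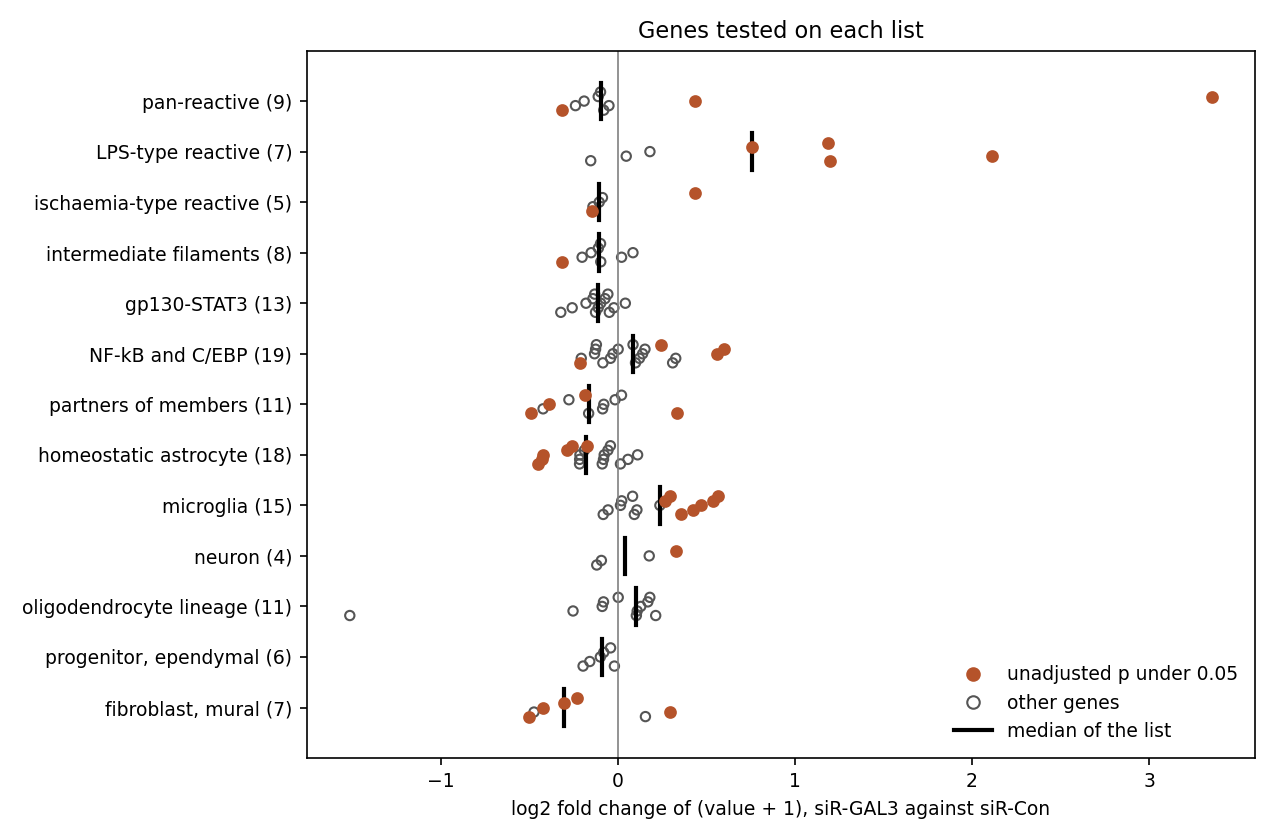
Log2 fold change of (value + 1), siR-GAL3 against siR-Con (horizontal axis), of each tested gene on 7 pathway lists and 6 cell type lists (rows, with the number tested), filled where the unadjusted limma p was under 0.05, with the list's median as a bar. The LPS-type list has its median at 0.76 and the microglial list at 0.24, while the homeostatic astrocyte list has its median at -0.18.

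Markers of astrocytes that are not tied to reactivity were lower alongside GFAP. Of 18 tested, 15 were lower and 3 higher, with a median log2 fold change of -0.18, and 6 had an unadjusted limma p under 0.05, all lower, against 4.25% of all genes. SLC7A10, among the 18, passed the filter on low values only through the group where it is higher. Its direction is therefore not support for the list. ATP1B2, an astrocyte sodium pump subunit gene, was at 128, 145 and 145 in siR-Con and 105, 100.2 and 104 in siR-GAL3 (-0.43, limma, unadjusted p = 0.000848, adjusted p = 0.149), and ACSBG1, a fatty acid activating enzyme gene, was lower too (-0.28, unadjusted p = 0.00558, adjusted p = 0.312). The summed level of the list was 692 to 780 in siR-Con and 635 to 696 in siR-GAL3. GFAP over ATP1B2 was 3.95 to 5.92 in siR-Con and 4.96 to 5.32 in siR-GAL3, so relative to this marker GFAP overlapped between the groups. GFAP over AQP4 was 4.27 to 6.92 in siR-Con and 4.07 to 5.58 in siR-GAL3, and overlapped too. ATP1B2 was named for its small p in these same data. It was lower by more than GFAP (-0.43 against -0.31), so its choice favoured the overlap. Within each group the library with the highest GFAP had the lowest sum of the list. These were siR-Con replicate 1 (692 against 775 and 780) and siR-GAL3 replicate 2 (635 against 696 and 644). GFAP itself differed little within siR-GAL3, at 533 in replicate 2 against 523 and 515. The part of the astrocyte share in the GFAP difference was not tested.

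Microglial markers differed in the other direction, with 13 of 15 tested higher, a median of 0.24, and 7 with an unadjusted limma p under 0.05, all higher, against 4.41% of all genes. CD68, a lysosomal protein gene of phagocytes, was at 8.84 to 9.62 in siR-Con and 13.0 to 14.2 in siR-GAL3 (0.54, limma, unadjusted p = 0.000121, adjusted p = 0.101), and PTPRC, the CD45 gene of blood-derived cells and microglia, was higher by 0.43 (unadjusted p = 0.000665, adjusted p = 0.149). The list summed to 144 to 173 in siR-Con and 184 to 206 in siR-GAL3, and its median was 0.16 to 0.30 when 1 library was left out. LCN2, CHI3L1, CP and the summed LPS-type genes differed between the groups in the same direction as these markers, but not library by library. In siR-Con, replicate 1 had the lowest microglial sum (144 against 170 and 173) but the highest LCN2, CHI3L1, CP and LPS-type sum. In siR-GAL3, replicate 1 had the highest microglial sum, CP and LPS-type sum but the lowest LCN2. The part of the microglial RNA in their differences was not tested.

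The other cell types were compared in the same way. Oligodendrocyte markers had a median of 0.11 (7 of 11 tested higher, none with an unadjusted limma p under 0.05) and summed to 1094 to 1170 in siR-Con and 1108 to 1432 in siR-GAL3. Without siR-GAL3 replicate 3 that median was -0.05. Neuronal markers summed to 24.9 to 29.2 and 23.6 to 28.9, with 4 tested, 2 in each direction and a median of 0.04 (0.02 to 0.21 when 1 library was left out), and 7 of the 12 listed were under 0.5 in every library. STMN2, among the 4, was higher in siR-GAL3 and passed the filter only through that group, so its direction is not support. Progenitor and ependymal markers had a median of -0.09, with 6 of 6 lower and none with an unadjusted limma p under 0.05, and summed to 242 to 262 and 214 to 280. Fibroblast and mural markers had a median of -0.30 (5 of 7 lower), led by the collagen genes COL3A1 (-0.50, limma, unadjusted p = 0.00255, adjusted p = 0.233) and COL1A1 (-0.42, unadjusted p = 0.00739, adjusted p = 0.347), and summed to 52.0 to 59.8 in siR-Con and 42.1 to 47.0 in siR-GAL3. None of the endothelial markers reached a mean of 1, and their sum was 1.20 to 1.38 in siR-Con and 1.24 to 1.37 in siR-GAL3. VIM and CD44 are also made by fibroblasts, and the part of these cells in their values was not tested.

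The genes whose values over the 6 libraries were most like those of LCN2, among the 2599 genes whose mean reached 5, were LYZ2, a lysozyme gene of myeloid cells (Pearson r = 0.998), NXN (0.983), ARPC1B (0.982), IFITM3, an interferon-induced gene (0.982), and GARS (0.976). LYZ2 was at 15.1, -6.30 and -7.91 in siR-Con and 24.5, 22.6 and 30.9 in siR-GAL3, so it was below 0 in the same libraries as LCN2. IFITM3 took no value below 0 and was at 11.6, 6.20 and 6.96 in siR-Con and 15.3, 15.0 and 13.7 in siR-GAL3. The genes most like GFAP were PPP2R1A (0.969), ATP5F1B (0.962), ORMDL3 (0.957), RRM1 (0.956) and MAEA (0.944), and no member was in either group of 5. NES, OSMR, SERPINA3N and CHI3L1 had means under 5 and were not compared, though CHI3L1 had an r of 0.992 with LCN2. These correlations describe 6 points that share groups and library sets and carry no test.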

How the data were processed

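RNA of 6 libraries was sequenced by the authors. Per the supplement and methods, the authors aligned reads with STAR, counted them with HTSeq 0.5.4, estimated FPKM, removed batch effects, standardized the data and corrected differences within groups, with tools and genome build not given in the sources used here. The labels name ribosomal depletion and the supplement poly-T selection. The deposited values are therefore neither counts nor plain FPKM, hold values below 0 (3.86% of all) and keep no depth, so precision rests on the 3 libraries per group. No reads were recovered.

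Values below 0 were set to 0 and log2(value + 1) was fitted with limma 3.58.1 (R 4.3.3, intensity trend) over genes with a mean of at least 1. The study's text named limma with a log2 fold change beyond 1 and p under 0.05. Adjusted p-values are Benjamini-Hochberg values over all genes tested. Members below the filter were taken from a fit without it. The fit was tested on simulated data. Tables were summarised in Python 3.11.15. The plan assumed FPKM-derived values and was kept.

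The members, lists and role groups were chosen with earlier results of these data known. Named genes were the members, LGALS3, the 3 tested genes of each pathway list and the 2 of each cell type list with the smallest p, any gene passing the study's criteria, and the 5 genes most like LCN2 and GFAP. Any other gene was picked after its values were seen. Of 17648 rows, 16309 matched a RefSeq symbol, all 10 members among them, and all 10 had a RefSeq promoter window (GRCr8). Alternatives were another pseudocount, other filters, quantile and median-ratio scaling, no trend, values below 0 left out, no log, a replicate block, a library set block and leaving out each library.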

Additional observations from a re-analysis of the deposited data

How the results depend on the processing

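The number of members that passed the study's criteria was 1, and it became 0 with values below 0 left out and 3 without the log transform, where the threshold is in linear units (0.247% and 4.32% of all genes, against 0.318% as reported). The number with an unadjusted limma p under 0.05 was 3, and 5 in the fit blocked by library set, where NES and TIMP1 joined and the share of all genes went from 8.66% to 13.8%. The number with an adjusted limma p under 0.05 was 0, and 1 with that block (CP, with 1.25% of all genes). Leaving out each library gave 0 to 1, the 1 being LCN2 without siR-Con replicate 1 (adjusted p = 0.000325, with 0.200% of all genes) and CP without siR-GAL3 replicate 2 (1.97%). In that fit of LCN2 both siR-Con values left were below 0 and set to 0, so their spread was 0 by construction. Its adjusted p is therefore not support for a difference. Members without overlap numbered 4, and 4 to 8 when a library was left out, 8 without siR-GAL3 replicate 1, where the share of all genes without overlap was 38.1%, against 20.5% with all libraries. The direction of VIM changed under quantile normalization (0.0069). TIMP1 ranged from -0.20 to 0.013 over left-out libraries. The log2 fold changes of NOTCH1 and S1PR3 were 0.028 and 0.019 with the library set block, and over left-out libraries they ranged from -0.32 to 0.023 and from -0.099 to 0.028. The cause of these changes was not tested. Of 152 values for the members, 134 kept direction and side of the threshold, 10 lost an unadjusted p under 0.05, 5 gained one and 3 changed sign. CHI3L1 lost it with the library set block and without any single library except siR-Con replicate 1. Same-numbered deviations from the group means correlated at -0.17, -0.07 and 0.04. These values cannot exclude a pairing by replicate number, since the authors had already corrected batch and within-group differences. Replicate 1 of both groups fell into 1 library set. A fit with the replicate block gave 1 member by the study's criteria, 3 at an unadjusted limma p under 0.05 and 0 at an adjusted one. The small number of libraries and the unknown depth limit the precision. The authors' correction within groups may make the SDs, intervals and p-values too small.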
